A study of Mus musculus with 20 samples.

Results

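The genes described here encode the proteasome, its activators, its inhibitor and its dedicated assembly chaperones. They were chosen by name: a mouse protein-coding symbol that begins with Psma, Psmb, Psmc, Psmd, Psme, Psmf or Psmg followed by a digit, without the immunoproteasome genes Psmb8, Psmb9 and Psmb10. The RefSeq gene table holds 48 such symbols, and 47 of them were matched to 59 probes of the array, out of 21612 genes and 39429 probes in all. Of the 47 genes, 45 passed the filter on dim probes and were tested. The other 2, Psma8 and Psmb11, were not well above background on any array, and encode subunits known from the testis and the thymus. No probe was matched to Psme2, and Psme2b, whose transcript is a near-identical copy, stood in for it, so its signal cannot be assigned to either gene. The name rule also took in Psmc3ip and Psme3ip1, which are not proteasome subunits and are counted apart.

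The proteasome degrades proteins tagged with ubiquitin. Its core particle, the 20S proteasome, is a stack of outer rings of alpha subunits, which form the gate, and inner rings of beta subunits, which carry the peptidase sites. The 19S regulatory particle caps the core and recognises, unfolds and feeds in the substrate, through a ring of ATPases and a set of non-ATPase subunits. Core and cap together form the 26S proteasome. Subunit genes are known to be transcribed together, under the bZIP factor Nfe2l1 when proteasome activity falls and under Nfe2l2 in oxidative stress. NF-kB, the family of p65/RelA, depends on the proteasome, which removes its inhibitor IkB and processes its precursors.

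RNA came from a murine B16 cell line carrying Bcr-Abl, transfected with plasmids for the NF-kB subunit p65/RelA or its fragments; B16 is a melanoma line, and the strain entry of the labels reads mouse C3H eOuJ. The 6 groups were a control labelled Blanck, read here as the void plasmid (3 arrays), wild-type p65 (WT, 3 arrays), the non-cleavable mutant D361E (3 arrays), the N-fragment of residues 1 to 361 (3 arrays), the C-fragment of residues 362 to 549 (3 arrays) and both fragments together (N+C, 5 arrays). All groups share the line and Bcr-Abl, so Bcr-Abl was not a variable. The labels say neither whether the cells were clones or pools, nor whether arrays of a group came from separate transfections, so the spread behind the p-values is that between these samples only and may be technical. The stated aim was to compare the genes regulated by WT, D361E and the fragments. Each sample was hybridised in 1 colour, and a level below is the log2 signal of a probe minus the 75th percentile of its own array, so that a level of 0 lies at that percentile. A difference between groups is in log2 units, with its standard error (SE) from the fit. Calls were made with limma at a Benjamini-Hochberg adjusted p under 0.05 over 18739 genes and unnamed probes.

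The 20 arrays lay on 5 slides, and 51.1 to 57.9% of their spots were well above background. The 75th percentile itself was lowest in a void array and up to 1.45 times higher in a WT array, which makes the scaling matter. Without scaling, the median difference of all tested genes became 0.37 for WT, 0.12 for D361E, 0.28 for the N-fragment, 0.21 for the C-fragment and 0.19 for N+C against void. Against WT it became -0.24 for D361E, -0.10 for the N-fragment, -0.15 for the C-fragment and -0.19 for N+C. All differences below are therefore relative to the bulk of the genes on an array, and unscaled splits of calls stand beside the counts over all members, over the 26S subunits and over its groups of genes. The share of all genes called without scaling is not given beside them. The unscaled splits therefore show how far a count depends on scaling, and not an excess over the array. The 5 N+C arrays lay in 2 sets, arrays 1 to 3 and arrays 4 and 5, each on more than 1 slide. The levels of 31 of the 45 proteasome genes (68.9%) did not overlap between the sets, as did those of 60.8% of all genes. Counts of N+C calls are therefore also given for each set, as are single genes whose call rested on 1 set. The sets were found in these data, and a fit on 1 set leaves out the spread between the sets. Calls and p-values within a set are therefore descriptive only. Of the 9 melanocyte markers, including Tyr, Dct and Pmel, all were above background on every array, and none of the 4 epithelial markers passed the filter. Of the 4 macrophage markers 3 passed, with a mean level of -0.92 to -0.37 over the groups, of the 3 endothelial markers 2, at -2.16 to -1.82, and of the 6 haematopoietic markers only Cd3e. Cd68, a lysosomal protein of macrophages, moved with the groups: its mean level was -1.91 in void, -2.75 in WT, -1.57 with the N-fragment and -1.004 with N+C, and N+C was higher by 0.91 than void and by 1.75 than WT. Csf1r and Itgam, which also passed, did not rise with it. Against void they differed by 0.06 and -0.39 in N+C arrays 1 to 3. In arrays 4 and 5 they differed by -0.34 and -1.15, and only the last was called. Fibroblast markers moved between groups: 3 of 5 passed, their mean level was -1.09 in the N-fragment group and -4.10 to -2.98 in the others. The N+C mean pools the 2 sets. Against void, Col1a1 differed by -1.29 in arrays 1 to 3 and 2.01 in arrays 4 and 5, and Pdgfra by -0.55 and 0.61. Col1a2 was lower in both sets, by -3.24 and -1.69. The part of these markers in the results was not tested. In bulk RNA, fewer cells of a type and less RNA per cell cannot be told apart.

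Rela, the gene of the transfected constructs, had levels of 4.17, 4.14 and 4.19 on the void arrays and 4.51, 4.69 and 4.39 on the N-fragment arrays. The N-fragment group was higher by 0.36 (SE 0.07, adjusted p = 0.00089). For WT the difference from void was 0.07, for D361E 0.08, for the C-fragment 0.08 and for N+C 0.18, none of them called. Where its probe lies on the transcript was not given, so it does not check whether the constructs were expressed.

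Relative to the other genes on an array, 26S subunits were called higher with the N-fragment and with both fragments, against void and against WT. The alpha ring and the 19S non-ATPases, the largest group, held most of these calls by number. By share, the non-ATPases exceeded the ATPases and the beta ring except in N+C against WT (54.5% beside 66.7% and 57.1%). The rises of 26S subunits were small, at most 1.57-fold (Psma4 in N+C against WT). Against void, N+C had 18 of 45 proteasome genes higher and 4 lower, where 11.8% of all tested genes were called higher and 12.8% lower. The N-fragment had 13 higher and 3 lower, against 13.2% and 17.9% of all genes. The C-fragment had 4 higher and 1 lower (4.88% and 8.24% of all genes), D361E 2 higher and 2 lower (6.04% and 7.44%), and WT 0 higher and 1 lower (3.22% and 6.16%). Shares of members for WT, D361E and the C-fragment were near the background or rested on a handful of genes. Without scaling these splits became 31 higher and 1 lower for N+C, 35 and 0 for the N-fragment, 15 and 0 for the C-fragment, 4 and 1 for D361E and 32 and 0 for WT. The median of all genes shifted up as well, so these splits cannot be set against the scaled shares.

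With WT as the control, N+C had 22 members higher and 2 lower (13.6% and 9.67% of all genes), and the N-fragment 16 higher and 3 lower (13.8% and 13.5%). The C-fragment had 2 higher and 0 lower (2.09% and 2.35%). D361E differed from WT in 0 of 45 members in limma's test (2.42% and 1.79% of all genes), with 5 members at an unadjusted p under 0.05. Unscaled values gave 3 higher and 5 lower for N+C against WT, 6 and 2 for the N-fragment, 0 and 0 for the C-fragment and 0 and 2 for D361E. The void and WT comparisons share the same fragment arrays, so the 2 controls do not give independent counts.

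**Figure D1:**
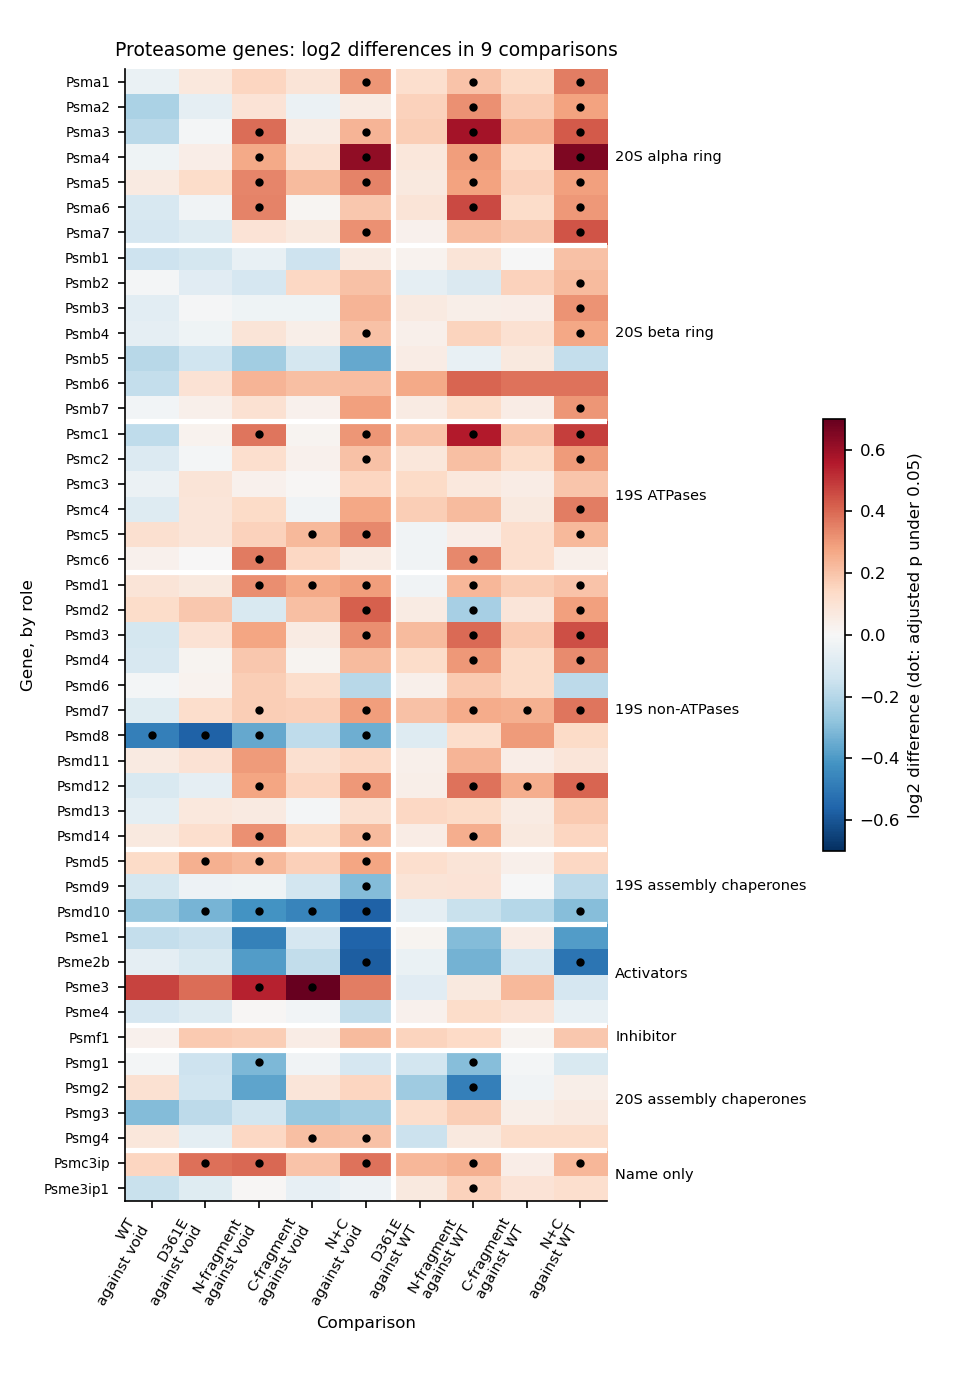
Log2 difference (colour) of each of the 45 tested genes (rows, grouped by role) in 9 comparisons (columns), with a dot where the adjusted p was under 0.05. The columns of the N-fragment and of N+C are mostly red across the alpha ring and the 19S subunits, Psmd8 and Psmd10 are blue in all 5 comparisons against void, and no dot lies in the column of D361E against WT.

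Over the 31 tested subunits of the 26S particle, the median difference from void was 0.22 for N+C, 0.16 for the N-fragment, 0.06 for the C-fragment, 0.02 for D361E and -0.07 for WT, beside -0.06 to -0.02 for all genes. Relative to the median of all genes these were 0.25, 0.22, 0.08, 0.06 and -0.04. Against void 15 subunits were called higher and 1 lower for N+C, 10 and 1 for the N-fragment, 2 and 0 for the C-fragment, 0 and 1 for D361E and 0 and 1 for WT. Against WT there were 21 and 0 for N+C, 14 and 1 for the N-fragment and 2 and 0 for the C-fragment. In N+C, arrays 1 to 3 alone gave 17 higher and 3 lower against void and 22 and 2 against WT. Arrays 4 and 5 alone gave 7 and 0 against void and 8 and 0 against WT. The second set has fewer arrays, so counts of calls do not measure where the rise lies. Psmd3 lay 0.32 above void in arrays 1 to 3 (SE 0.11, called) and 0.33 in arrays 4 and 5 (SE 0.13, not called). Without scaling the splits against void were 26 and 0 for N+C, 27 and 0 for the N-fragment, 11 and 0 for the C-fragment, 2 and 1 for D361E and 24 and 0 for WT. Those against WT were 3 and 1 for N+C, 6 and 1 for the N-fragment and 0 and 0 for the C-fragment. On single arrays the median of the 31 subunits lay 0.15, 0.20, 0.25, 0.26 and 0.28 above the void mean in the N+C group, at 0.13 to 0.20 in the N-fragment group and at 0.04 to 0.10 in the C-fragment group. The WT arrays lay at -0.09 to -0.05, and the D361E arrays at -0.10, 0.05 and 0.13. The void arrays themselves spanned -0.08 to 0.06, so every N-fragment and N+C array lay above them, the WT arrays lay within or just below their range, and D361E overlapped them.

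**Figure D2:**
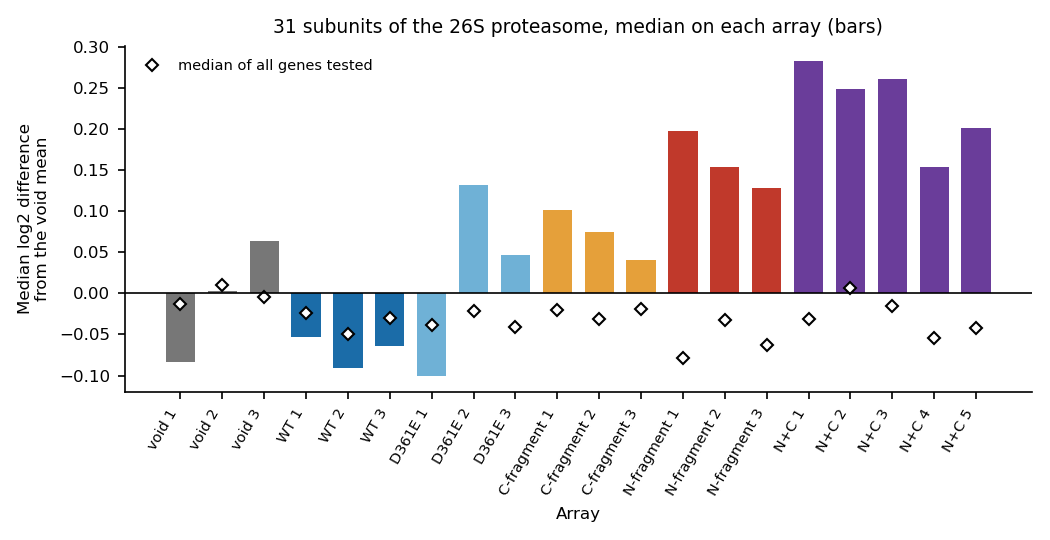
Median log2 difference of the 31 tested 26S subunits from the void mean on each of the 20 arrays (bars, coloured by group), with the median of all tested genes as diamonds. The N-fragment and N+C bars lie at 0.13 to 0.28, while the diamonds stay between -0.08 and 0.01.

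Slides held more than 1 group, so the same comparison was also made between arrays of 1 slide. N+C lay above void on the 3 slides that held both, with subunit medians of 0.12, 0.34 and 0.20 and 27, 27 and 28 of 31 subunits positive. The N-fragment lay above void on the only slide with both, by 0.16, and the C-fragment by 0.11 on its only one. D361E lay 0.06 and 0.02 above void on 2 slides. Against WT within a slide, the medians were 0.35 and 0.33 for N+C, 0.14 and 0.19 for the N-fragment and 0.10, 0.13 and 0.15 for the C-fragment. D361E against WT gave -0.04 on 1 slide, and WT against void -0.02.

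In the alpha ring, all 7 tested alpha genes had positive differences for the N-fragment and N+C against both controls. Against void 4 of 7 were called higher for the N-fragment and 5 of 7 for N+C, and against WT 6 and 7 of 7, with none lower. N+C arrays 4 and 5 alone gave 3 of 7 against void and 4 of 7 against WT, and arrays 1 to 3 alone 5 and 7. Unscaled values gave 7 of 7 for both groups against void, and 3 for the N-fragment and 1 for N+C against WT. The ring's median difference was 0.31 for N+C and 0.26 for the N-fragment against void, and -0.11 for WT, 0.07 for the C-fragment and -0.01 for D361E, which had 0 of 7 called.

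Psma4 showed the largest rise among the 26S subunits. Its levels were 2.84, 2.81 and 2.76 on the void arrays, 2.79, 2.77 and 2.75 on the WT arrays, and 3.52, 3.58, 3.54, 3.28 and 3.19 on the N+C arrays. The N+C arrays all lay above every void and WT array, and arrays 4 and 5 lay below arrays 1 to 3. The rise was 0.62 against void (SE 0.08, adjusted p = 2.85e-05) and 0.65 against WT (adjusted p = 1.70e-05), a 1.57-fold change. It held in each set, at 0.74 for arrays 1 to 3 and 0.44 for arrays 4 and 5 against void. With the N-fragment, levels of 2.95, 3.11 and 3.14 lay between, 0.26 above void (SE 0.09, adjusted p = 0.0298). That call was lost without void 2, void 3, N-fragment 2 or N-fragment 3 (adjusted p = 0.0673, 0.0876, 0.0949 and 0.109). A second Psma4 probe gave 0.56 for N+C and 0.20 for the N-fragment against void.

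For Psma3, the N-fragment group stood highest. Its arrays read 6.22, 6.15 and 6.05, against 5.72, 5.74 and 5.78 for void and 5.38, 5.61 and 5.68 for WT. No N-fragment array overlapped either control. The difference was 0.39 from void (SE 0.09, adjusted p = 0.00229) and 0.58 from WT (SE 0.09, adjusted p = 9.03e-05). N+C, at 6.09, 6.05, 6.01, 5.90 and 5.89, was 0.24 above void (adjusted p = 0.0314), a call lost without any 1 void array (adjusted p = 0.0958, 0.0863 and 0.059) or without N+C 1, 2 or 3 (0.0681, 0.0619 and 0.0562). Arrays 1 to 3 alone gave 0.30, called, and arrays 4 and 5 alone 0.15, not called. Psma6 was also higher with the N-fragment than in WT, by 0.46 (SE 0.11, adjusted p = 0.00638), with arrays at 4.87, 4.67 and 4.55 against 4.29, 4.18 and 4.24. Psma5 was higher than void in both groups, by 0.34 with the N-fragment and 0.35 with N+C.

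**Figure D3:**
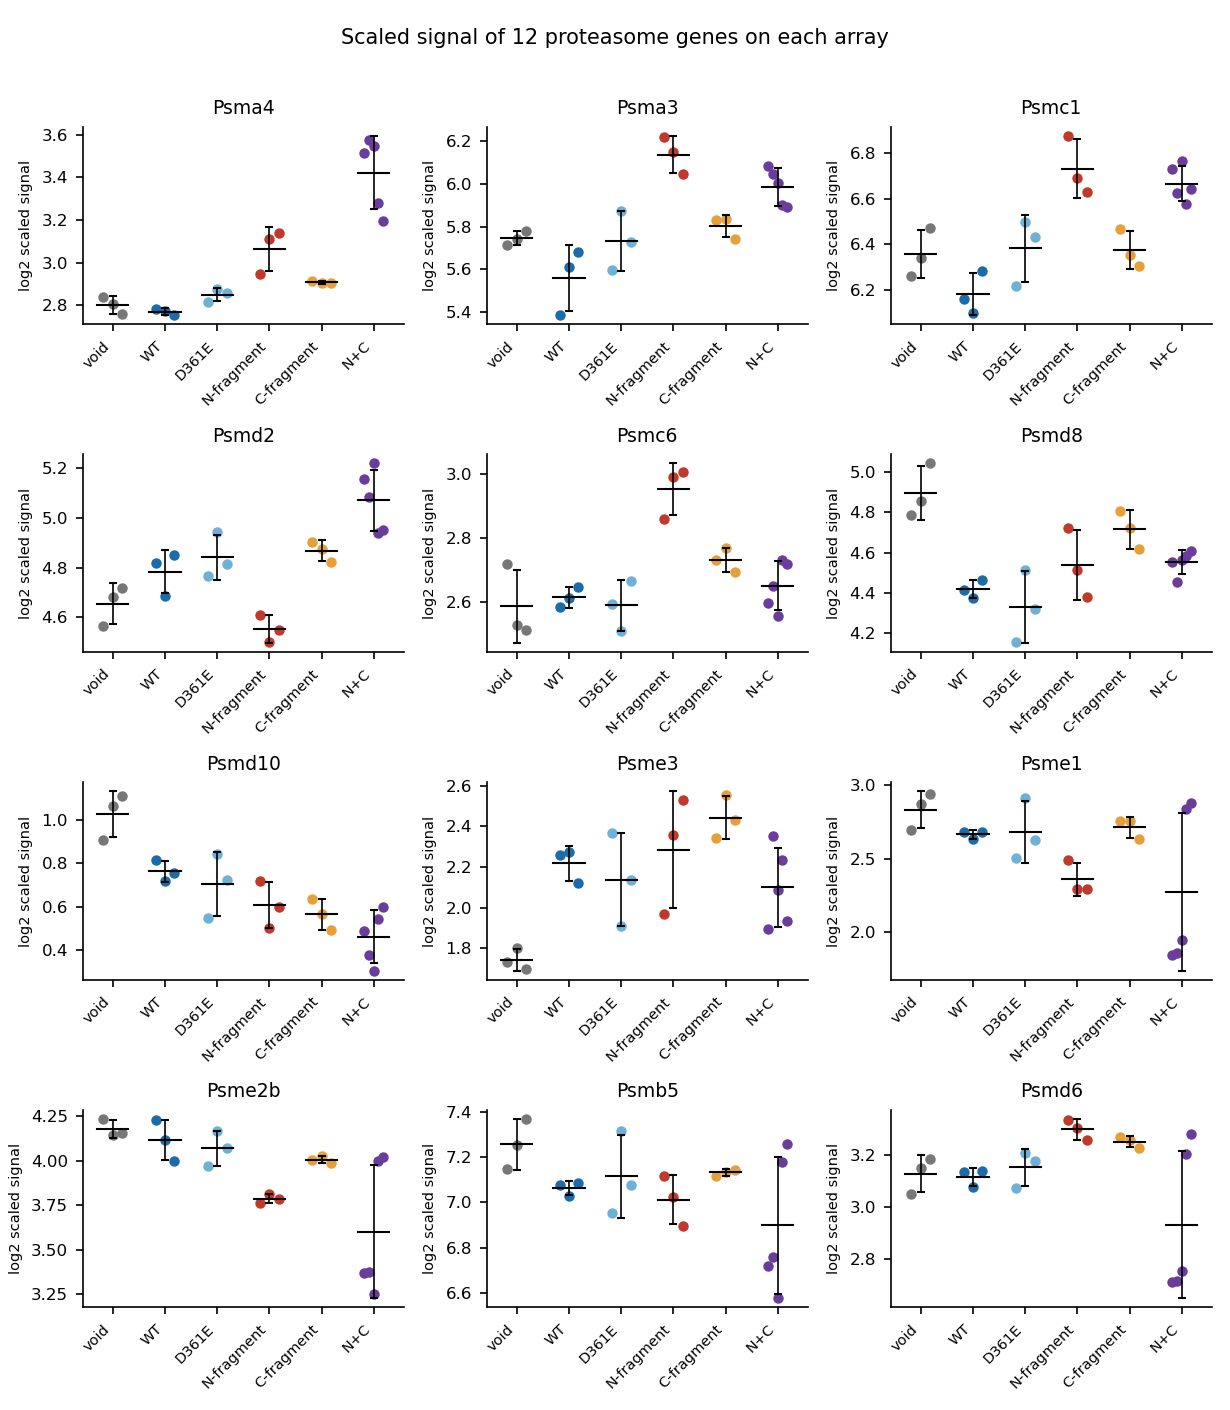
Level (log2 signal minus the 75th percentile of the array) of 12 proteasome genes on each of the 20 arrays, by group; points are arrays, the horizontal line is the group mean and the bar its SD. Psma4 and Psmd2 are highest in N+C, Psma3, Psmc1 and Psmc6 in the N-fragment group, Psmd8 and Psmd10 are highest in void, and the N+C points of Psme1, Psme2b, Psmb5 and Psmd6 fall into 2 clusters.

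In the beta ring, none of the 7 tested genes was called for the N-fragment against either control, with differences from void between -0.24 and 0.24. N+C had 1 of 7 higher than void (Psmb4, by 0.21) and 4 of 7 higher than WT (Psmb2, Psmb3, Psmb4 and Psmb7, by 0.22 to 0.31). With arrays 4 and 5 alone, 0 of 7 were called against either control. With arrays 1 to 3 alone, Psmb2 and Psmb4 were higher and Psmb5 lower than void. Against WT those arrays gave Psmb1, Psmb2, Psmb4 and Psmb7 higher and Psmb5 lower. Unscaled values gave 5 of 7 higher than void in both groups and 0 called against WT. Psmb4's call against void was lost without any of 14 arrays (adjusted p = 0.0581 to 0.216). A difference between the alpha and beta rings was not tested.

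Psmb5, Psmb6 and Psmb7 carry the chymotrypsin-like, caspase-like and trypsin-like peptidase sites. None of them was called against void over all arrays of any group. Psmb5 read 7.15, 7.25 and 7.37 in void and 6.72, 6.76, 6.58, 7.18 and 7.26 in N+C, where arrays 1 to 3 lay below every void array and arrays 4 and 5 lay among them. The difference of -0.36 over all 5 arrays had a 95% interval of -0.64 to -0.08 and an adjusted p of 0.0619. With arrays 1 to 3 alone the Psmb5 difference was -0.57 from void and -0.38 from WT. Psmb7 had a difference of 0.29 for N+C against void (95% interval 0.07 to 0.50, adjusted p = 0.0505) and was higher than WT by 0.31 (adjusted p = 0.0384). Leaving out WT 1, WT 2, WT 3, C-fragment 2, N+C 1 or N+C 3 ended the call against WT (adjusted p = 0.0501 to 0.14). Psmb6 had a difference of 0.22 for N+C against void (95% interval -0.08 to 0.51), and 1 WT array, at 5.87, lay below the others, at 6.71 and 6.67.

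Promoter sequences were at hand for 39 of the 47 genes, as windows of 300 bases from RefSeq on GRCm38.p6 that run from 250 bases before the start to 50 bases after it; the array itself was designed on another build. They are shown for some of the genes with called changes, up (Psma3, Psma4, Psmc6 and Psmd12) and down (Psmd8). These are not throughout the largest changes. Psmc1, Psme3 and Psmd10 also have windows, hold no antioxidant core and had larger called changes than Psmc6 and Psmd12, and are not shown. The antioxidant response element core TGACNNNGC, which factors such as Nfe2l1 and Nfe2l2 bind, and the CCAAT box, which NF-Y binds, were searched on both strands. The core was present in 6 of 39 members (15.4%) and in 14% of all 27025 genes with a window; CCAAT was present in 15 of 39 (38.5%) and in 41.1% of all. The 6 genes with the core were Psmb5, Psmb6, Psmc6, Psmd12, Psmd9 and Psme4. The 250 bases before the start are printed 5′ to 3′ on the strand of the gene, with matches in capitals: Psma3 (chr12:70974373-70974622, plus strand), Psma4 (chr9:54950609-54950858, plus), Psmc6 (chr14:45329574-45329823, plus), Psmd12 (chr11:107479278-107479527, plus) and Psmd8 (chr7:29180674-29180923, minus).
Psma3: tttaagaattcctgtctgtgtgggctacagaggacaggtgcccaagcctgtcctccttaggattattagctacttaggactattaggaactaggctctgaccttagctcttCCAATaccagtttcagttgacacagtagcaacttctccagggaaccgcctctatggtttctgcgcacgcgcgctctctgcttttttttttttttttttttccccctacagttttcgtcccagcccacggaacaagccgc
Psma4: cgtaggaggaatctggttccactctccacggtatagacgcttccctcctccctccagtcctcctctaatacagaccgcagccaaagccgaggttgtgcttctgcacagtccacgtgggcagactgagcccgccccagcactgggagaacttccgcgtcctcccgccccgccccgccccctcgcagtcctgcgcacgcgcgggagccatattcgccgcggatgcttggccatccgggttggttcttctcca
Psmc6: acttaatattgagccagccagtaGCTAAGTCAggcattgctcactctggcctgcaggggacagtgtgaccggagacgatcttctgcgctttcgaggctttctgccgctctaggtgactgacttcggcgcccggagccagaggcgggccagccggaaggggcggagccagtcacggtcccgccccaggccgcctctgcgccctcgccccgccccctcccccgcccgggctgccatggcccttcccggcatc
Psmd12: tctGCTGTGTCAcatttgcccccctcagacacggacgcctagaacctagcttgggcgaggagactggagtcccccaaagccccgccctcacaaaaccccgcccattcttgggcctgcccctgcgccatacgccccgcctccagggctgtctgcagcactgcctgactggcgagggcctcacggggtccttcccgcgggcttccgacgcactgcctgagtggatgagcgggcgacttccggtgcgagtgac
Psmd8: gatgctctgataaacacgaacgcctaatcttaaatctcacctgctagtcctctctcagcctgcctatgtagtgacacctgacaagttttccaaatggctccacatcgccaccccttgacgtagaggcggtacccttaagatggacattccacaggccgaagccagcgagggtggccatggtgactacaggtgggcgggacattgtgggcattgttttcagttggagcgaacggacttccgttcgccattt
In Psma3 a CCAAT lies 139 bases before the start, and a further 2 matches lie after the start and are not printed. In Psmc6 and Psmd12 the core lies on the opposite strand, as GCTAAGTCA 227 bases and GCTGTGTCA 247 bases before the start. The Psma4 and Psmd8 windows hold neither. Of the 6 genes with the core, Psmc6 and Psmd12 were called higher than void with the N-fragment and the other 4 were not called (Psmb5 -0.24, Psmb6 0.24, Psmd9 -0.03 and Psme4 0.01). Psma3 and Psma4 rose without the core in this window. A match is a description of the letters and not a binding site.

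Among the 6 ATPases of the 19S base, which unfold the substrate, 2 were higher than void with the N-fragment and 3 with N+C, and 2 and 4 were higher than WT, with none lower. N+C arrays 4 and 5 alone gave 1 against each control, and arrays 1 to 3 alone 3 and 4. Unscaled values gave 6 for the N-fragment and 5 for N+C against void, and 1 each against WT. Psmc1 read 6.26, 6.34 and 6.47 in void, 6.16, 6.10 and 6.28 in WT, and 6.88, 6.69 and 6.63 with the N-fragment. The N-fragment arrays overlapped neither control. The rise was 0.38 against void (SE 0.09, adjusted p = 0.00412) and 0.55 against WT (adjusted p = 0.000209). In N+C, at 6.73, 6.62, 6.76, 6.58 and 6.64, it was 0.31 above void (adjusted p = 0.00967; 0.056 without void 1; 0.0845 with arrays 4 and 5 alone) and 0.49 above WT (adjusted p = 0.000355). For Psmc1 the second probe gave 0.53 for the N-fragment and 0.45 for N+C against void.

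Psmc6, another ATPase, was called higher with the N-fragment alone and not with N+C. Its N-fragment arrays read 2.86, 2.99 and 3.01, above void at 2.72, 2.53 and 2.51 and above N+C at 2.60, 2.65, 2.56, 2.73 and 2.72. The N-fragment group was higher than void by 0.37 (SE 0.07, adjusted p = 0.000692), and the N+C difference from void was 0.06 and not called. Psmc5 was higher than void with N+C by 0.34 (adjusted p = 0.000294) and with the C-fragment by 0.23 (adjusted p = 0.021). The C-fragment call was lost without void 2, void 3, C-fragment 2 or C-fragment 3 (adjusted p = 0.0764, 0.0522, 0.0662 and 0.0884).

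The 11 non-ATPase subunits of the 19S particle build its base and lid, and include the scaffold subunits Psmd1 and Psmd2, the deubiquitinase Psmd14 and the ubiquitin receptor Psmd4. Against void 4 were higher and 1 lower with the N-fragment, and 6 higher and 1 lower with N+C. Against WT 6 were higher and 1 lower with the N-fragment, and 6 higher and 0 lower with N+C. N+C arrays 4 and 5 alone gave 3 higher and 0 lower against each control, and arrays 1 to 3 alone 7 and 2 against void and 7 and 1 against WT. Unscaled values gave 9 higher and 0 lower for both groups against void, and 2 and 1 for the N-fragment and 1 and 1 for N+C against WT.

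Psmd2 had its highest levels in N+C and its lowest with the N-fragment. Its levels were 4.56, 4.68 and 4.72 in void, 4.61, 4.50 and 4.55 with the N-fragment, 4.90, 4.88 and 4.82 with the C-fragment and 5.16, 5.09, 5.22, 4.94 and 4.95 with N+C. All N+C arrays lay above all arrays of void, WT and both single fragments, while D361E, at 4.77, 4.94 and 4.82, overlapped them at its highest array. N+C was higher than void by 0.42 (SE 0.07, adjusted p = 0.000457), at 0.50 in arrays 1 to 3 and 0.29 in arrays 4 and 5, both called. Against WT, N+C was higher by 0.29 (adjusted p = 0.00777; 0.0584 without WT 2; 0.107 with arrays 4 and 5 alone). The N-fragment was lower than WT by 0.23 (adjusted p = 0.0389), a call lost without WT 1, WT 3, C-fragment 2, N-fragment 2 or N-fragment 3 (adjusted p = 0.0508 to 0.129).

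Psmd8, a lid subunit, was the exception in the other direction. It read 4.79, 4.86 and 5.04 in void, 4.41, 4.37 and 4.46 in WT, 4.15, 4.51 and 4.32 in D361E, 4.72, 4.51 and 4.38 with the N-fragment and 4.55, 4.45, 4.57, 4.58 and 4.61 with N+C. Void lay above every array of these 4 groups. The differences from void were -0.48 for WT (SE 0.10, adjusted p = 0.00633), -0.57 for D361E (adjusted p = 0.00105), -0.36 for the N-fragment (adjusted p = 0.011) and -0.34 for N+C (adjusted p = 0.00963). The N-fragment call was lost without void 3 or N-fragment 3 (adjusted p = 0.0594 and 0.064), and the N+C call without void 3 (0.0638). With the C-fragment, at 4.81, 4.72 and 4.62, the difference of -0.18 was not called, and no group differed from WT by a called amount.

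Psmd1 was higher than void with the N-fragment (0.32), the C-fragment (0.27) and N+C (0.29). The C-fragment call was lost without void 2, void 3 or any 1 C-fragment array (adjusted p = 0.0777 to 0.115), and N+C arrays 4 and 5 alone gave 0.15, not called. Psmd12 and Psmd7, both of the lid, were the only members called for the C-fragment against WT, by 0.26 and 0.25 (adjusted p = 0.0278 and 0.0289). Leaving out any 1 WT or C-fragment array ended the Psmd12 call (adjusted p = 0.0556 to 0.131), and leaving out WT 1, WT 2 or any 1 C-fragment array the Psmd7 call (0.073 to 0.131). Psmd3 was higher than WT with N+C by 0.45 (adjusted p = 0.0028). For Psmd12, called higher than void in both N-fragment groups (0.28 and 0.30), the second probe gave 0.24 and 0.19 against void, but against WT only 0.04 with the N-fragment, 0.07 with the C-fragment and -0.0047 with N+C, where the first gave 0.38, 0.26 and 0.41.

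The chaperones that assemble the 19S base went both ways. Psmd10, known as gankyrin, was lower than void in 4 of 5 comparisons. Void read 0.91, 1.06 and 1.11, the C-fragment 0.64, 0.57 and 0.49, the N-fragment 0.72, 0.50 and 0.60 and N+C 0.49, 0.38, 0.30, 0.54 and 0.60, with no overlap. It fell by 0.56 with N+C (SE 0.08, adjusted p = 0.000104), by 0.46 with the C-fragment (adjusted p = 0.00341), by 0.42 with the N-fragment (adjusted p = 0.00211) and by 0.32 with D361E (adjusted p = 0.0259). The D361E call was lost without void 2, void 3, D361E 1 or D361E 3 (adjusted p = 0.0858, 0.0959, 0.122 and 0.0652). The WT difference of -0.26 was not called. N+C was also lower than WT, by 0.30 (adjusted p = 0.0134; 0.0657 without WT 1; 0.136 with arrays 4 and 5 alone). A second Psmd10 probe gave -0.49 for N+C and -0.41 for D361E, but only -0.19 for the N-fragment, -0.03 for the C-fragment and 0.06 for WT.

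Psmd5, a chaperone that holds ATPases before the cap is complete, rose against void with D361E (0.25), the N-fragment (0.23) and N+C (0.28, adjusted p = 0.0065). The D361E call was lost without void 1, void 2, D361E 2, D361E 3 or C-fragment 2 (adjusted p = 0.0512 to 0.155), and the N-fragment call without void 1, void 2, N-fragment 1 or N-fragment 2 (0.0584 to 0.134). Psmd9 was lower than void with N+C by 0.31 (adjusted p = 0.0478), with overlapping arrays and a call lost without any of 15 arrays (adjusted p = 0.0508 to 0.202).

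Of the 4 chaperones of the core particle, which pair and stack its rings, Psmg1 was lower with the N-fragment. Its N-fragment arrays read 4.25, 4.25 and 4.29, below void at 4.66, 4.52 and 4.55 and WT at 4.65, 4.55 and 4.50. It fell by 0.31 against void (SE 0.06, adjusted p = 0.000468) and by 0.30 against WT (adjusted p = 0.000725), and a second probe gave -0.31 and -0.41. Without scaling the difference from void turned to 0.02. Psmg2, its partner, was lower than WT with the N-fragment by 0.48 (adjusted p = 0.0187), with arrays at 1.82, 2.11 and 2.17 against 2.59, 2.51 and 2.43. Leaving out WT 1, WT 2 or N-fragment 1 ended that call (adjusted p = 0.0695, 0.0503 and 0.0941). With the N-fragment 2 of 4 core chaperones were thus lower than WT, where 13.5% of all genes were. Psmg3 and Psmg4 had positive differences from WT of 0.17 and 0.07, not called. Of the 7 alpha genes 6 were higher, where 13.8% of all genes were. A difference between the chaperones and the alpha ring was not tested.

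The activators open the core gate in place of the 19S cap. Psme3, the nuclear activator subunit, read 1.73, 1.80 and 1.70 in void and 1.90 to 2.55 on the arrays of the other groups, which did not overlap void. It was called higher with the C-fragment (0.70, SE 0.15, adjusted p = 0.00507), where the arrays read 2.34, 2.55 and 2.43, and with the N-fragment (0.54, adjusted p = 0.00988; 0.059 without N-fragment 3). The WT difference of 0.47, the D361E difference of 0.39 and the N+C difference of 0.36 were not called. Psme4 and the inhibitor Psmf1 were called in none of the 10 comparisons.

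Psme1 and the Psme2b probe report the interferon-inducible activator ring, and both fell apart by array set in N+C. Psme1 read 2.69, 2.87 and 2.94 in void, 1.84, 1.86 and 1.94 on N+C arrays 1 to 3, and 2.84 and 2.88 on arrays 4 and 5. Against void it was not called over all 5 arrays (-0.56, adjusted p = 0.0699). Its difference from void was -0.95 in arrays 1 to 3 alone and 0.02 in arrays 4 and 5 alone. The Psme2b probe was called lower than void over all 5 arrays, by 0.58 (SE 0.15, adjusted p = 0.0101), and lower than WT by 0.51 (adjusted p = 0.0203; 0.0955 without WT 1 and 0.0641 without WT 2). In arrays 1 to 3, at 3.37, 3.37 and 3.25, its difference from void was -0.85, and in arrays 4 and 5, at 4.00 and 4.03, it was -0.17. With the N-fragment, Psme1 at 2.49, 2.29 and 2.29 and Psme2b at 3.76, 3.81 and 3.79 lay below all void arrays, without a call (adjusted p = 0.157 for Psme1).

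Psmc3ip, which carries the name of an ATPase but is a partner of recombination proteins, was higher than void with D361E (0.39), the N-fragment (0.40) and N+C (0.38). Void read 0.46, 0.47 and 0.43, D361E 0.82, 0.87 and 0.83, the N-fragment 0.70, 0.94 and 0.92, and N+C 0.87, 0.94, 0.93, 0.76 and 0.69. Its adjusted p-values were 0.00171, 0.000462 and 0.000389. These calls did not depend on any single array.

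The array sets of N+C changed which members were called, and the sets differ in their number of arrays. With arrays 1 to 3 as the N+C group, 22 members were higher and 8 lower than void, where 33.7% of all genes were called. With arrays 4 and 5, 9 were higher and 2 lower, where 28.3% were called. Against WT the counts were 26 higher and 6 lower for arrays 1 to 3 and 8 higher and 0 lower for arrays 4 and 5, where 32.2% and 27.6% of all genes were called. Against void 9 members were called higher in both sets: Psma1, Psma4, Psma5, Psmc3ip, Psmc5, Psmd12, Psmd2, Psmd5 and Psmd7. Of the genes lower in arrays 1 to 3, Psmd10 was also called lower in arrays 4 and 5. Psme1, Psme2b, Psmb5, Psmd6, Psmg3, Psmd9 and Psmd8 were called lower in arrays 1 to 3 and not in arrays 4 and 5.

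Most 26S subunits lay slightly higher in arrays 1 to 3: of the 31, 7 were higher in arrays 4 and 5, and the median difference between sets was -0.09, beside -0.04 over all genes. Against that, Psmb5 was 0.53 and Psmd6 0.52 higher in arrays 4 and 5. For Psmd6, a lid subunit, arrays 1 to 3 read 2.71, 2.71 and 2.75, arrays 4 and 5 3.20 and 3.28, and void 3.05, 3.15 and 3.19. The sets were found in the data and are not groups of the study, so the differences between them carry no test. Psma7 (-0.39), Psmg2 (-0.42) and Psma4 (-0.31) were the members furthest in the other direction.

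**Figure D4:**
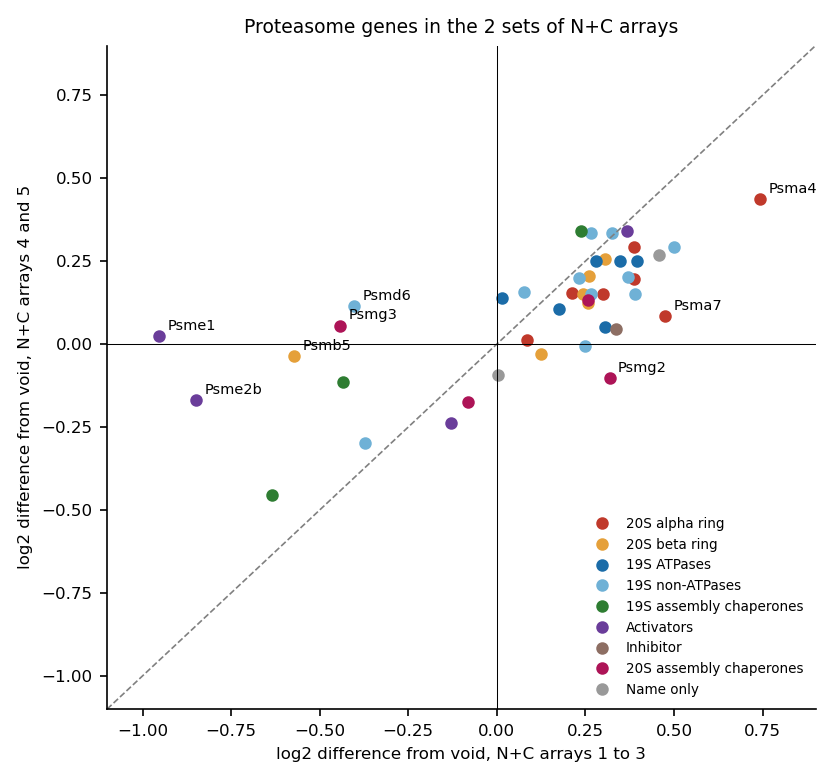
Log2 difference from void of the 45 tested genes with N+C arrays 1 to 3 (x axis) and with arrays 4 and 5 (y axis), coloured by role; the dashed line marks equal values, and both axes share the void arrays. Most genes lie at positive values near or below the line, while Psme1, Psme2b, Psmb5, Psmd6 and Psmg3 lie far above it at negative x values.

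Whether both fragments together exceeded the sum of their separate effects was tested as the N+C difference from void less the 2 single-fragment differences from void. Of 45 members 2 were called above and 2 below the sum, where 14.3% and 8.75% of all genes were, and the 26S median was 0.01. Unscaled values gave 0 above and 20 below. Psme3 lay below the sum by -0.88 (SE 0.20, adjusted p = 0.00401) and Psmc6 by -0.45 (SE 0.09, adjusted p = 0.00242). The mean level of each was higher with the N-fragment alone than with both fragments. Psmd2 lay above it by 0.31 (adjusted p = 0.0478), a call lost without any of 13 arrays (adjusted p = 0.0547 to 0.114). Psmg1 lay above it by 0.22 (adjusted p = 0.0479), lost without any of 14 arrays (0.0524 to 0.11). Without scaling both of these turned negative, at -0.05 for Psmd2 and -0.14 for Psmg1.

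Genes around the proteasome were read from lists. Of the immunoproteasome genes, Psmb8 did not pass the filter. Psmb10 was called in none of the 10 comparisons, but with N+C arrays 1 to 3 alone it lay 0.25 above WT. Psmb9, the interferon-inducible counterpart of Psmb6, was well above background on all 3 void and all 3 WT arrays, on 2 of 5 N+C arrays, and on none with D361E, the N-fragment or the C-fragment. Its bound, taken against the higher of its own signal and the lowest signal above background on each array, was at least 1.49-fold lower than void with the N-fragment, 1.94-fold with D361E and 1.52-fold with the C-fragment. Psmb9 passed the filter only through arrays of void, WT and N+C. For the other groups, and for part of N+C, the fit sets values at background against measured ones. Its p-values for Psmb9 are therefore not given. In N+C, arrays 4 and 5 (-5.16 and -5.34) lay near void (-5.10, -4.71 and -5.15), and arrays 1 to 3, not above background, read -7.37, -7.90 and -7.87. With arrays 4 and 5 alone, N+C was called against neither control.

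Of 13 other assembly and proteasome-bound factors 12 were tested. With the N-fragment 3 were higher and 3 lower than void, and with N+C also 3 and 3 (13.2% and 17.9% of all genes for the N-fragment, 11.8% and 12.8% for N+C). Arrays 1 to 3 alone gave 4 and 2, and arrays 4 and 5 alone 2 and 4. WT itself had 0 higher and 4 lower than void (3.22% and 6.16% of all genes). Against WT 5 were higher and 0 lower with the N-fragment, and 7 and 0 with N+C (13.8% and 13.5%, and 13.6% and 9.67%, of all genes). Arrays 1 to 3 alone gave 7 and 0, and arrays 4 and 5 alone 5 and 1. Unscaled values gave 7 and 0 for the N-fragment and 6 and 0 for N+C against void, and 3 and 0 and 1 and 1 against WT. The deubiquitinase Uchl5 rose by 0.42 against void and 0.58 against WT with the N-fragment, and Usp14, another, by 0.30 against void and 0.54 against WT with N+C. With arrays 4 and 5 alone Usp14 was called against WT only (0.40). The ubiquitin receptor Adrm1 rose by 0.51 against void with N+C, by 0.68 in arrays 1 to 3, while the 0.25 of arrays 4 and 5 was not called. The core maturation factor Pomp fell by 0.32 and the adaptor Ecpas fell by 0.50 with the N-fragment against void, and both were also called lower with WT and D361E. Both were called lower than void in each N+C set too. Pomp gave -0.15 in arrays 1 to 3 and -0.24 in arrays 4 and 5, and Ecpas -0.27 and -0.39. Fbxo7 fell by 0.38 with WT and fell by 0.50 with D361E against void, and was higher than WT with N+C by 0.33. Against void it was called in neither N+C set (-0.02 in arrays 1 to 3 and -0.07 in arrays 4 and 5).

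Of 8 regulators of proteasome genes 7 were tested. Nfe2l1, the factor of the bounce-back response, had 1 call against void: it fell by 0.35 with the N-fragment (adjusted p = 0.0215). Nfe2l2 fell by 0.34 with the N-fragment and fell by 0.37 with D361E. Maff, a small Maf protein that pairs with both, rose against void in all 5 groups, by 1.05 with WT, 1.23 with D361E, 3.05 with the N-fragment, 1.05 with the C-fragment and 1.83 with N+C. Its void arrays read -3.68, -3.64 and -3.85 and its N-fragment arrays -0.64, -0.75 and -0.63.

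All 11 ubiquitin shuttle and p97 genes were tested. With the N-fragment Rad23b (0.33) and Ubqln1 (0.34) rose and Ubqln2 fell by 0.61 against void, where 13.2% of all genes were called higher and 17.9% lower. With N+C the p97 cofactor Nsfl1c rose by 0.62 (0.78 in arrays 1 to 3 and 0.37 in arrays 4 and 5, both called). Over all N+C arrays it was the only one of the 11 called against void (11.8% of all genes were higher and 12.8% lower). Ufd1 was also called higher in arrays 1 to 3 alone (0.31), and Ubqln2 lower in arrays 4 and 5 alone (-0.44). Unscaled values gave 9 higher and 0 lower with the N-fragment and 7 and 0 with N+C.

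Across all 6 groups the 45 proteasome genes varied less than the array as a whole. The median range of the group means was 0.35 for the members and 0.52 for all genes, and the median residual SD 0.11 and 0.18. The 2 sets differ in brightness. All tested members but Psme4 lay above the 75th percentile on every array, while the filter also kept probes above background on only 3 arrays. The part of brightness in the smaller spread, and in the shares called, was not tested. The highest group mean was that of N+C for 22 members and of the N-fragment for 13 (15% and 19.5% of all genes). It was never that of WT or D361E (12.1% and 13.6% of all genes). The lowest was that of WT for 21 members, where WT was lowest for 15.4% of all genes. Against void 19 members were called in none of the 5 comparisons (54.7% of all genes were). In 4 comparisons 2 members were called, Psmd8 and Psmd10, both lower (3.63% of all genes), and in all 5 no member (2.35%).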

How the data were processed

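The 20 samples are 1-colour Agilent arrays of Cy3-labelled total RNA. Per the file headers and the submitters' processing notes, spots were read with Agilent Feature Extraction 10.7.3.1. The deposited intensity is the processed signal, background-subtracted with no scaling between arrays; the authors' value table equals it on every feature. Probes were named through their accession in the RefSeq gene table (72.7% of 39429 probes). Outlier spots were left out (98 to 285 per array; 0 on member probes), no spot was saturated, spots of a probe were averaged on the log2 scale, and each array's 75th percentile was subtracted. Probes well above background on at least 3 arrays were kept (23433), with the brightest per gene (18739 tested, 13824 with a symbol). One limma 3.58.1 fit in R 4.3.3 covered all 20 arrays and 6 group means (lmFit, eBayes; 14 residual degrees of freedom), with Benjamini-Hochberg adjustment within each of 10 comparisons. The script was tested on simulated data.

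The named genes were Rela, per comparison the 3 called members with the largest rise and the 3 with the largest fall, the 6 members called in most comparisons against void, the peptidase and immunoproteasome genes, members not above background, and up to 2 called genes per direction and list; others were named after their values were seen. The members and lists were chosen with earlier results of these data known. Alternatives were quantile normalization, normexp background correction with quantile normalization (offset 50, on the median spot signal, since the mean signal that was planned is not used here), no scaling, a percentile over probes above background on all arrays, no filter, a stricter filter, averaging over the probes of a gene, fits on only the groups compared, the slide as a fixed or random block, a trended robust prior, and each array left out in turn; leaving out each N+C array set was added after seeing the data. The number of arrays limits the precision. The list of ubiquitin genes is not reported here.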

Additional observations from a re-analysis of the deposited data

Results flagged for a closer look

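Among the 5 N+C arrays, 45 genes were examined for a single array far from the rest, by Dixon's test with a critical value of 0.71, and 5 genes had one; chance gives about 1 such gene in 20. N+C 4 was the lowest array for Psmb4, at a level of 6.36, for Psmc3, at 7.15, and for Psmd11, at 2.40. N+C 3 was the highest for Psmb7, at 4.69. N+C 1 was the highest for Psme4, at -0.29. The cause was not tested.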

How the results depend on the processing

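Counts of called members (main counts: WT 1, D361E 4, N-fragment 16, C-fragment 5 and N+C 22 against void; D361E 0, N-fragment 19, C-fragment 2 and N+C 24 against WT; 4 beyond the sum) depended most on scaling, on the arrays of the N+C group and on pooling the spread over groups; those not listed stayed within 1.5 times. Without scaling they were 32 for WT, 35 for the N-fragment and 15 for the C-fragment against void, 2 for D361E, 8 for the N-fragment, 0 for the C-fragment and 8 for N+C against WT, and 20 beyond the sum. Leaving out the scaling adds 1 constant to every gene of a comparison, and by that shift alone the sign turned for Psmd2 beyond the sum (-0.048), and Psmg1 with the N-fragment against void (0.021) and beyond the sum (-0.14). Fitting only the groups compared gave 2 for WT, 1 for D361E and 10 for N+C against void, 4 for the C-fragment and 15 for N+C against WT, and 2 beyond the sum. Without N+C arrays 4 and 5 the counts were 4 for WT and 8 for the C-fragment against void, 2 for D361E against WT and 10 beyond the sum; without N+C arrays 1 to 3 they were 3 for WT, 8 for the C-fragment and 11 for N+C against void, 1 for D361E and 8 for N+C against WT, and 9 beyond the sum. With no filter they were 2 for D361E and 2 for the C-fragment against void, 12 for the N-fragment and 0 for the C-fragment against WT, and 2 beyond the sum. Normexp with quantile normalization gave 2 for WT and 3 for the C-fragment against void, 1 for the C-fragment against WT and 8 beyond the sum, and quantile normalization 3 and 0 for the C-fragment against void and WT. A percentile over detected probes gave 1 for D361E and 1 for the C-fragment against WT, and the mean of probes 1 for the C-fragment against WT. The stricter filter and the trended prior each gave 2 for WT against void and 7 beyond the sum. The slide as a block gave 2 for WT against void, 1 for D361E and 4 for the C-fragment against WT, and as a random block 2 for WT and 8 for the C-fragment against void and 1 for D361E against WT. Leaving out 1 array gave 1 to 3 for WT, 2 to 4 for D361E, 12 to 19 for the N-fragment, 2 to 6 for the C-fragment and 15 to 26 for N+C against void, 0 to 1 for D361E, 12 to 21 for the N-fragment, 0 to 2 for the C-fragment and 15 to 27 for N+C against WT, and 2 to 7 beyond the sum. Of 97 gene and comparison pairs called, 28 kept their call under every alternative listed in the processing other than the array sets. The cause was not tested. No paired analysis was possible because the labels number the samples in 1 running series, with no number shared between groups.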
